A study of Mus musculus with 172 samples.

Results

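The 10 amino acid transporters described here were Slc1a1, Slc1a5, Slc3a2, Slc7a3, Slc7a5, Slc7a6, Slc7a7, Slc38a1, Slc38a2 and Slc38a4. They were taken by gene symbol from the 49671 genes of the single-cell count tables, and all 10 had counts. They were picked with their levels in these same samples already known, so the levels, fold changes and adjusted p-values given for them describe where each gene stood in a fit of all genes and are no independent test. The single-cell RNA-seq data came from 172 cells of the inner cell mass (ICM) of mouse blastocysts, in which the question was what changes when the embryo lacks OCT4, the transcription factor encoded by Pou5f1 that pluripotent cells depend on.

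Embryos came from crosses of Pou5f1 heterozygous (HET) mice of mixed genetic background, and ICMs were freed from the outer trophectoderm (TE) by immunosurgery. At embryonic day (E) 3.5 there were 58 cells from 7 control embryos, 5 wild type (WT) and 2 HET, and 29 cells from 4 Pou5f1-null embryos (MUT). At E4.5 there were 6 control embryos, 2 WT and 4 HET, each of which gave both epiblast (EPI, 37 cells) and primitive endoderm (PrE, 29 cells), and there were 19 MUT cells from 2 embryos that carried no lineage label. The EPI and PrE classes were assigned by the authors from these same transcriptomes, so a difference between them is partly set by how the cells were classed. WT and HET embryos were pooled as controls, which is how the study treated them. The embryo was the replicate: the counts of all cells from the same embryo were added up, separately for EPI and PrE at E4.5, to give 25 sums of 2736296 to 17453036 counts. All E4.5 cells were on one plate and all E3.5 cells on another, so stage and plate cannot be told apart.

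Amino acids cross the plasma membrane through carriers of several families. Slc3a2 encodes the heavy chain (CD98) that brings light chains of the Slc7 family to the cell surface, among them Slc7a5, an exchanger of large neutral amino acids such as leucine, and Slc7a6 and Slc7a7, which exchange cationic for neutral amino acids. Slc7a3 carries arginine and lysine without a heavy chain. Slc1a1 takes up glutamate and aspartate, Slc1a5 exchanges neutral amino acids including glutamine, and Slc38a1, Slc38a2 and Slc38a4 are sodium-coupled importers of small neutral amino acids. Of these, Slc38a2 is a known target of the amino acid deprivation response, and Slc38a4 is imprinted in mouse.

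RefSeq promoter windows on GRCm38.p6 were available for 6 of the 10 genes, and the stretches upstream of the start site that hold no annotated exon are printed for 4 of them. Slc7a6 and Slc7a7 are shown because these light chains exchanged rank between PrE and EPI, and Slc1a1 and Slc38a4 because their levels in E4.5 MUT embryos were above every control sum of either lineage. All run 5′ to 3′ on the gene's own strand, Slc7a6 at chr8:106168604-106168853 (plus strand), Slc7a7 at chr14:54417945-54418194 (minus), Slc1a1 at chr19:28834885-28835048 (plus) and Slc38a4 at chr15:97055957-97056206 (minus). Capitals mark a match to TGATGNAA, the core of the C/EBP-ATF element bound in the amino acid response.
Slc7a6: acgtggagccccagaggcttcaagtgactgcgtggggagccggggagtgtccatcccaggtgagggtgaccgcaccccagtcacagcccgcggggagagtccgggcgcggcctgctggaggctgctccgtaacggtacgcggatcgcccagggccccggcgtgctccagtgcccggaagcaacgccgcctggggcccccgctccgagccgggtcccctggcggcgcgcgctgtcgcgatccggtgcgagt
Slc7a7: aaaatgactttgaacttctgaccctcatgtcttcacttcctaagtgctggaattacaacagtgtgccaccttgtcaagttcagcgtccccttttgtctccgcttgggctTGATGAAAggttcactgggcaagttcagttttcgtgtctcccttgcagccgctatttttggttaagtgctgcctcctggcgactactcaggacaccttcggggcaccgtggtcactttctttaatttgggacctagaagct
Slc1a1: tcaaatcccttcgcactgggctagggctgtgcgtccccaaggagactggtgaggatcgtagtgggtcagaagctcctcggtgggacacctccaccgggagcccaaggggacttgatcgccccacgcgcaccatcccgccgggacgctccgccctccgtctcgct
Slc38a4: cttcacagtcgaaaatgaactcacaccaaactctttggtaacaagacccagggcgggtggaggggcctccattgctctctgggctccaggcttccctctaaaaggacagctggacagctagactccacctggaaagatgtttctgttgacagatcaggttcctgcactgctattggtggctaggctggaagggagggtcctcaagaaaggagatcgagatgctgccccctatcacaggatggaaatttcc
In the 13 windows of these 6 genes, each cut to the 250 bases before the start, 4 short motifs were looked for on both strands. The octamer ATGCAAAT, read by POU factors such as OCT4, stood in 1.62% of the 32536 distinct windows of all genes and in no window of the 6 genes, and the same held for the E-box CACGTG, present in 6.04% of all windows. TGATGNAA, present in 3.40% of all windows, was found in 2 Slc7a7 windows, starting 141 and 243 bases before their start sites. AGATAA, read by GATA factors and present in 9.97% of all windows, was found in 2 overlapping Slc7a7 windows. Such a match is a string of letters and no measured binding site.

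The genotype labels were borne out by Pou5f1 itself, which averaged 298 CPM (counts scaled to a common library size) in E3.5 control embryos and 4.31 CPM in E3.5 MUT, 141 in EPI and 88.8 in PrE, and had 0 counts in the 19 E4.5 MUT cells, which allows a level of up to 0.102 CPM. EPI sums held 2292 to 3973 CPM of 9 epiblast markers and 5.75 to 74.1 CPM of 10 PrE markers. PrE sums held 246 to 407 and 3012 to 7005 CPM of the same lists. The 10 TE markers summed to 41.3 to 111 CPM in EPI, with Cdx2 and Elf5 at 0, and to 104 to 492 CPM in PrE, with Elf5 at 0. In both E4.5 MUT embryos the TE markers were far higher, at 3847 and 4980 CPM. None of the 10 was at 0 in both embryos, but Cdx2 ranged from 0 to 22.9 CPM between them. Krt8 and Krt18 averaged 1991 and 1611 CPM there and made up most of the sum. At E3.5 the TE markers reached 215 to 837 CPM in controls against 660 to 1322 CPM in MUT, where Gata2 was at 0. The summed PrE markers were 381 to 607 CPM in E3.5 MUT against 99.4 to 317 CPM in E3.5 controls, with Sox17, Sox7 and Foxa2 at 0 in MUT. That rise was mostly Dab2 (298 against 47.0 CPM) and Col4a1 (75.2 against 17.8 CPM). Gata6 (91.0 against 113 CPM), Pdgfra, Cubn, Sox17 and Sox7 averaged lower in MUT. The median log2 fold change of the 7 PrE markers tested was −0.29. In E4.5 MUT the sums were 557 to 803 CPM, between EPI and PrE, with Sox7 and Foxa2 at 0. Epiblast markers summed to 926 to 1743 CPM in E3.5 controls and 436 to 1060 CPM in E3.5 MUT. In E4.5 MUT their sums were 498 to 1155 CPM, above PrE and below EPI, with Pou5f1 and Gdf3 at 0. Single epiblast markers did not all lie between the lineages. Nanog averaged 516 CPM in MUT against 277 CPM in EPI, and Utf1 11.8 CPM against 182 CPM in PrE. Of the 9, 1 was called higher and 3 lower in MUT than in PrE. The part of these marker shifts in the transporter differences was not tested.

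Compared per gene length, as FPKM (CPM divided by exon length in kilobases), each class had its own leading transporters. In E3.5 control ICM, Slc3a2 (38 FPKM) and Slc7a6 (37.1 FPKM) stood level, followed by Slc38a4 at 26.8 and Slc1a1 at 22.4 FPKM. EPI was led by Slc3a2 (153 FPKM) and Slc7a3 (149 FPKM) with Slc7a7 at 95.9 FPKM, whereas PrE was led by Slc7a6 (198 FPKM) and Slc3a2 (185 FPKM), with Slc7a7 (47.5 FPKM) and Slc1a5 (46.0 FPKM) next. In each of these 3 classes the leading pair differed by less than its SD over embryos. E4.5 MUT had Slc38a4 at the top with 150 FPKM, ahead of Slc3a2 at 82.5, Slc7a6 at 76.2 and Slc1a1 at 45.3 FPKM. Summed over the 10 genes, the level was 140 FPKM in E3.5 controls, 204 in E3.5 MUT, 478 in EPI, 518 in PrE and 384 in E4.5 MUT. Between 76.3% and 92.7% of the FPKM of all 50 amino acid transporters examined came from these 10.

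**Figure D1:**
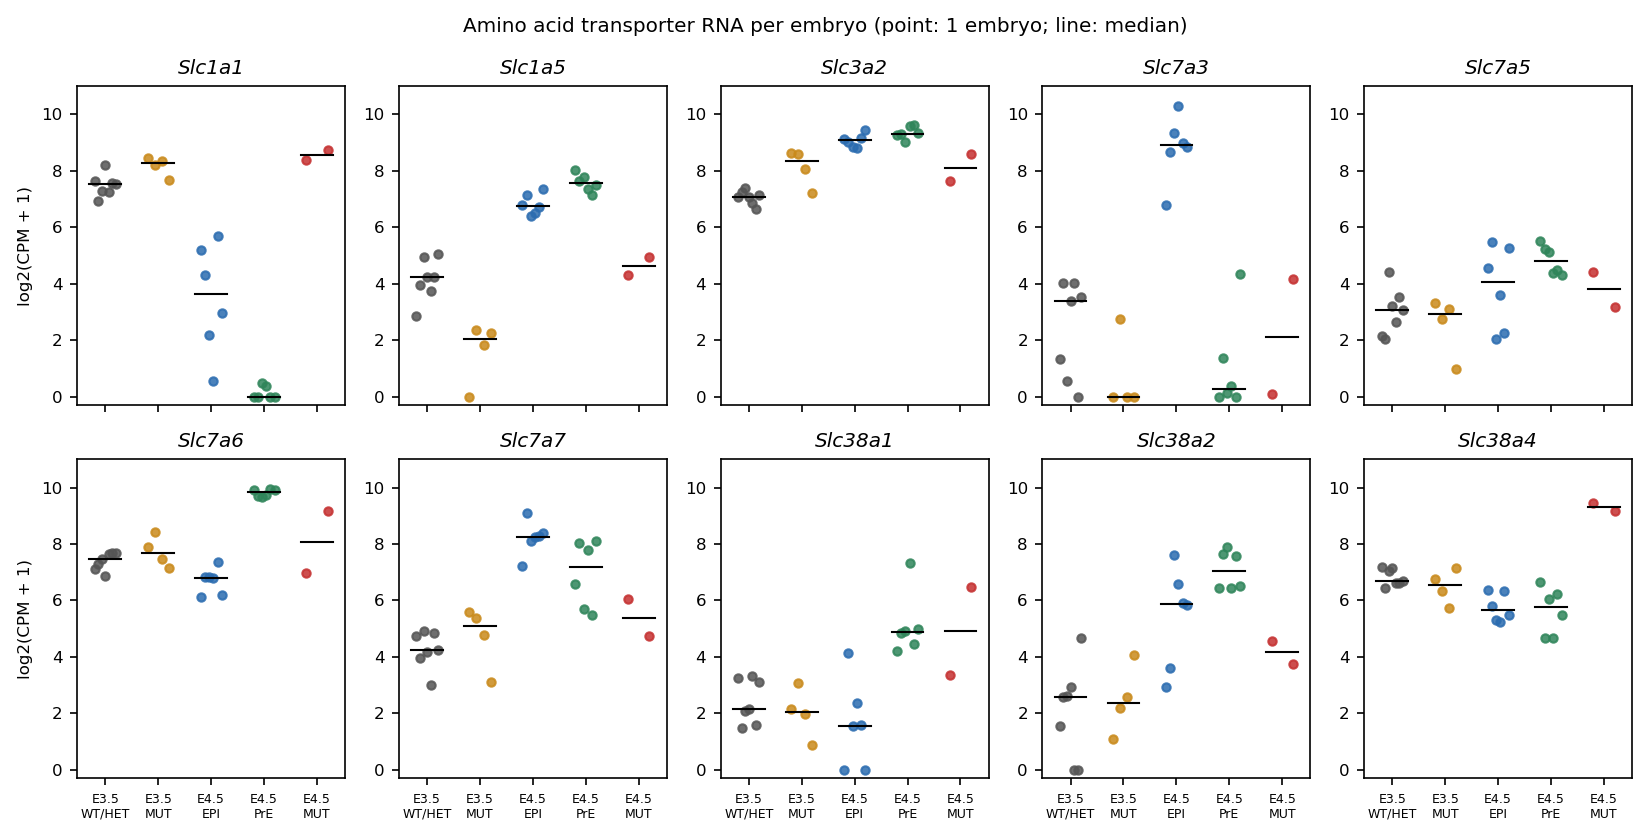
RNA level of each transporter as log2(CPM + 1), with 1 point for each embryo sum and a line at the median, in E3.5 WT/HET (n = 7), E3.5 MUT (n = 4), E4.5 EPI (n = 6), E4.5 PrE (n = 6) and E4.5 MUT (n = 2). Slc7a3 was high in EPI, Slc7a6 in PrE, and Slc38a4 in E4.5 MUT, and Slc1a1 was close to 0 in PrE.

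The sharpest lineage difference among the carriers that pair with the heavy chain was an exchange of light chains. Slc7a6 ranged from 67.8 through a median of 111 to 165 CPM in EPI sums and from 814 through 908 to 995 CPM in PrE sums. Every PrE sum was several times above every EPI sum, and the log2 fold change of EPI over PrE was −3.08 ± 0.21 (SE) (adjusted p = 7.52e-07, edgeR quasi-likelihood test with Benjamini-Hochberg adjustment over all genes tested, used for every adjusted p below). Slc7a7 went the other way, from 149 through 306 to 541 CPM in EPI and from 43.9 through 157 to 274 CPM in PrE, but its groups overlapped and the difference of 1.02 ± 0.45 did not pass the threshold of 0.05 (adjusted p = 0.206).

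Expressed as a share of the FPKM of 6 light chains (Slc7a5, Slc7a6, Slc7a7, Slc7a8, Slc7a10 and Slc7a11), Slc7a6 made up 19.6% ± 6.02 (SD, n = 6) in EPI and 78.4% ± 10.7 in PrE, with ranges of 12.4 to 27.5% and 64.9 to 92.0%. Slc7a7 made up 75.2% ± 5.17 in EPI and 17.6% ± 10.5 in PrE. No embryo of one lineage lay within the range of the other for either gene. In single cells, Slc7a7 was above Slc7a6 per gene length in 34 of 37 EPI cells and Slc7a6 above Slc7a7 in 28 of 29 PrE cells. E3.5 control cells resembled PrE in this, with Slc7a6 ahead in 55 of 58 cells and a share of 81.5% ± 6.69 (n = 7). E3.5 MUT had similar values, with a Slc7a6 share of 82.6% ± 7.29 (n = 4) and Slc7a6 ahead in 27 of 29 cells. Slc7a6 was above Slc7a7 in both E4.5 MUT embryos. In embryo 3 their shares, 49.8% and 36%, lay between the ranges of EPI and PrE. In embryo 8 they were 91.6% and 5.61%, within the PrE ranges. Slc7a6 was ahead in 13 of 19 E4.5 MUT cells and Slc7a7 in 6.

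The heavy chain itself was not lineage specific. Slc3a2 ranged from 451 through 537 to 691 CPM in EPI and from 513 through 633 to 777 CPM in PrE, and the groups overlapped over most of their range. Per gene length it was 1.35 times the summed light chains in EPI, 0.733 times in PrE and 0.867 times in E3.5 controls. Slc7a5, the leucine carrier that gives the best known CD98 pair, was low throughout, with a median of 16.7 CPM in EPI (3.11 to 43.5), 27.5 CPM in PrE (19 to 44.1) and 7.31 CPM at E3.5 (3.14 to 20.5).

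Slc7a3, the cationic carrier, had the largest fold difference between the lineages of the 9 transporters tested. Its 6 EPI sums ran from 109 through 482 to 1262 CPM, and the PrE sums from 0 through 0.202 to 19.1 CPM, the highest of them in embryo 7. No sums overlapped, and EPI was 7.28 ± 1.25 higher on the log2 scale (adjusted p = 0.00156). At least 1 count was seen in 36 of 37 EPI cells and in 6 of 29 PrE cells.

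The Slc1 family differed in the opposite directions. Slc1a5 was higher in PrE, at 140 through 186 to 262 CPM against 83.4 through 106 to 161 CPM in EPI. The groups overlapped, and the log2 fold change of EPI over PrE was −0.74 ± 0.21 (adjusted p = 0.0373), which became 0.0609 with the embryo as a block and held in only 2 of the 6 fits that left out 1 embryo, those without embryo 6 or 7 (up to 0.137 in the others). Slc1a1 was close to absent from PrE, with 7 counts in 29 cells and sums of 0 to 0.407 CPM, and was uneven in EPI, from 0.479 through 12.7 to 51.1 CPM. It was too low to be tested between the lineages, although the EPI sums lay just above the PrE sums.

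Of the neutral amino acid importers, Slc38a1 was higher in every PrE sum than in any EPI sum, at 17.3 through 28.3 to 161 CPM against 0 through 1.96 to 16.8 CPM. Its difference of −3.51 ± 1.21 did not pass the test (adjusted p = 0.0897, and 0.0413 without embryo 2), and the 161 CPM of embryo 5 stood apart from the other 5 PrE sums. Slc38a2 had a median of 57.5 CPM in EPI (6.71 to 196) and 140 CPM in PrE (85 to 234), with overlap. Slc38a4 medians were 49.7 and 54.7 CPM. In all, 3 of the 9 transporters tested between EPI and PrE were called, 1 higher and 2 lower in EPI, where 9.81% of all genes were called (4.61% higher and 5.2% lower). The groups of 4 of the 10 did not overlap, among them Slc1a1, which was not tested. Among all genes tested, 9.05% did not overlap.

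Between E3.5 and E4.5 most of the 10 changed in controls, as did many other genes. From E3.5 controls to EPI, 5 transporters were higher and 3 lower of the 10 tested (31.9% of all genes called), and to PrE 7 were higher and 2 lower (31.7% of all genes). Slc3a2 had 97.8 through 134 to 167 CPM at E3.5, below every E4.5 control sum, and was 2.03 ± 0.14 higher in EPI (adjusted p = 1.41e-07) and 2.28 higher in PrE (adjusted p = 4.33e-08). Slc1a5 (6.15 through 17.7 to 32.5 CPM at E3.5) was higher by 2.64 ± 0.34 in EPI and 3.36 in PrE, and Slc7a7 (6.97 through 17.9 to 29.4 CPM) by 4.02 ± 0.35 and 2.98 ± 0.48. These 3 genes therefore rose in both lineages, without overlap with E3.5. Groups without overlap were seen for 6 of the 10 in EPI and 7 in PrE, and for 19.7% and 20.4% of all genes.

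Other transporters moved in 1 lineage or went down. Slc7a3, with sums of 0 through 9.53 to 15.3 CPM at E3.5, was 6.26 ± 0.91 higher in EPI (adjusted p = 9.52e-05) and was not called in PrE. Slc7a6 had 116 through 175 to 204 CPM at E3.5 and was 2.40 ± 0.15 higher in PrE (adjusted p = 3.67e-08) but lower in EPI (−0.64 ± 0.22, adjusted p = 0.0358, called in 7 of 13 fits that left out 1 embryo and lost without control embryo 1, 7, 13, 15, 16 or 18, up to 0.0716). Slc7a5 (1.80 ± 0.49, adjusted p = 0.0110) and Slc38a1 (3.22 ± 0.64, adjusted p = 0.00116) were called higher in PrE only, and the difference between these 2 stage contrasts is the EPI against PrE comparison above, in which neither was called. Slc38a2 rose in both, by 3.57 ± 1.13 in EPI (adjusted p = 0.0252, but 0.0720 without embryo 4 and 0.0504 without embryo 9) and 4.58 ± 0.99 in PrE (adjusted p = 0.00227). Slc1a1, at 121 through 186 to 294 CPM in E3.5 controls, was lower, with log2 fold changes of −3.26 ± 0.72 in EPI (adjusted p = 0.00289) and −10.29 ± 0.58 in PrE (adjusted p = 1.65e-08). Slc38a4, at 86.1 through 101 to 146 CPM at E3.5, fell as well, with log2 fold changes of −1.01 ± 0.23 in EPI (adjusted p = 0.00303) and −1.06 ± 0.32 in PrE (adjusted p = 0.0198).

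Without OCT4 at E3.5 the heavy chain was the 1 transporter of the 10 called. Slc3a2 measured 396, 388, 267 and 147 CPM in the 4 MUT embryos against 97.8 to 167 CPM in the 7 controls, so that 3 MUT embryos were above every control and embryo 19 was within their range. The highest value was that of MUT embryo 10. Its cells had the highest median mitochondrial share of any embryo (13.7% of counts), and its sum the smallest normalization factor (0.778). The part of this in its levels was not tested. MUT was 1.18 ± 0.24 higher (adjusted p = 0.0119), a call that held in all 11 fits that left out 1 embryo and missed the threshold with WT embryos as the only controls (1.06, adjusted p = 0.0508). The summed light chains were 60.0 FPKM in MUT and 45.5 FPKM in controls, and the heavy chain rose from 0.867 to 1.42 times their sum.

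Slc1a5, the neutral amino acid exchanger, was low in each E3.5 MUT embryo, with 0, 4.12, 2.6 and 3.8 CPM against 6.15 through 17.7 to 32.5 CPM in controls. The groups did not overlap, but the difference of −2.81 ± 0.80 had an adjusted p of 0.0568, which was 0.0323 without MUT embryo 10, the one at 0 CPM. Slc1a1 measured 346, 292, 326 and 204 CPM in MUT against 121 to 294 CPM, a difference of 0.69 ± 0.22 (adjusted p = 0.0860, and 0.0351 without control embryo 14). An antisense gene, 4430402I18Rik, covers 31.9% of the exon bases of Slc1a1, and the strand setting of the counting was not stated. The antisense gene averaged 0.136 to 6.13 CPM in the 5 classes. That does not tell how many Slc1a1 reads were lost as ambiguous in the shared bases. For the other 7 transporters adjusted p lay between 0.349 and 0.990. Among all genes, 6.18% were called (3.2% higher) and 7.49% did not overlap between the groups, against 1 call and 1 gene without overlap among the 10.

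At E4.5 the most abundant transporter of MUT embryos was Slc38a4. It measured 703 and 576 CPM in the 2 MUT embryos, against 37.2 through 49.7 to 82.5 CPM in EPI and 24.4 through 54.7 to 99.4 CPM in PrE. Both MUT values were above every control sum at either stage. MUT was 3.48 ± 0.32 higher than EPI (adjusted p = 0.000458) and 3.55 ± 0.47 higher than PrE (adjusted p = 0.00381), and both calls held in each of the 8 fits that left out 1 embryo. They did not hold against the 2 WT embryos alone (adjusted p = 0.0692 and 0.149), a setting in which 48 and 27 genes were called in all. As a share of the FPKM of the 3 Slc38 genes, Slc38a4 made up 96.8% in E4.5 MUT and 96.4% ± 3.73 (SD) in E3.5 controls. The share was 65.0% ± 25.2 in EPI and 39.3% ± 17.8 in PrE. It varied widely between EPI embryos and overlapped with MUT, as EPI of embryo 1 (96.2%) was above MUT embryo 8 (95.4%). The highest PrE share was 68.7%. Slc38a1, Slc38a2 and Slc38a4 are neighbours on chromosome 15, separated by 44479 and 295090 bp. Of them, only Slc38a4 was called higher in E4.5 MUT than in EPI or PrE.

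Slc1a1, the glutamate carrier, was the other gene above every E4.5 control sum, at 328 and 420 CPM in MUT against at most 51.1 CPM in EPI and 0.407 CPM in PrE. The difference passed the test against PrE (11.31 ± 0.84, adjusted p = 0.000149, in each of the 8 fits that left out 1 embryo and against WT embryos alone) but not against EPI (4.25 ± 1.07, adjusted p = 0.0540, and 0.0343 and 0.0476 without control embryo 5 or 6). Because PrE held 7 counts in all, the size of that fold rests on very few reads. The MUT level was close to the 204 to 346 CPM of E3.5 MUT embryos.

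Several carriers that rose between E3.5 and E4.5 in controls were lower in E4.5 MUT than in a control lineage. Slc1a5 measured 18.6 and 29.4 CPM, within the E3.5 control range and below every EPI and PrE sum. Its log2 fold change was −2.28 ± 0.41 against EPI (adjusted p = 0.0132, but 0.131 without MUT embryo 3 and 0.0544 without MUT embryo 8) and −2.99 ± 0.38 against PrE (adjusted p = 0.00267). Slc7a7 measured 65.1 and 25.4 CPM, below every EPI sum, with a log2 fold change of −2.84 ± 0.55 against EPI (adjusted p = 0.0193, but 0.121 without MUT embryo 8), while its range crossed that of PrE. Slc38a2, with 22.9 and 12.5 CPM, had a log2 fold change of −3.04 ± 0.60 against PrE (adjusted p = 0.0231), a call lost without MUT embryo 3 (0.116) or MUT embryo 8 (0.177).

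The remaining members were not called against either lineage. Slc3a2 had 197 and 385 CPM in MUT, below every EPI and PrE sum, with differences of −0.92 ± 0.28 against EPI (adjusted p = 0.0922) and −1.16 ± 0.29 against PrE (adjusted p = 0.0576). Slc7a3 had 0.0582 and 16.7 CPM, below every EPI sum, with a difference of −6.11 ± 1.64 against EPI (adjusted p = 0.0663). Slc7a6 was at 124 CPM in embryo 3, within the EPI range, and at 573 CPM in embryo 8, between the lineages. With embryo 8 left out its log2 fold change against PrE was −2.84, and with embryo 3 left out that against EPI was 2.40. Each of these fits rests on 1 MUT embryo. Slc7a5 (20.4 and 7.97 CPM) and Slc38a1 (9.14 and 87.3 CPM) also differed several-fold between the 2 MUT embryos. In all, 3 of 10 were called against EPI, 1 higher and 2 lower, where 4.92% of all genes were called (2.3% higher and 2.62% lower), and 4 against PrE, 2 higher and 2 lower, where 3.81% were called (1.74% higher and 2.07% lower). With 2 MUT embryos, 24.1% and 22.1% of all genes did not overlap with EPI and PrE, against 6 of the 10 in each. Both comparisons use the same 2 MUT embryos.

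**Figure D2:**
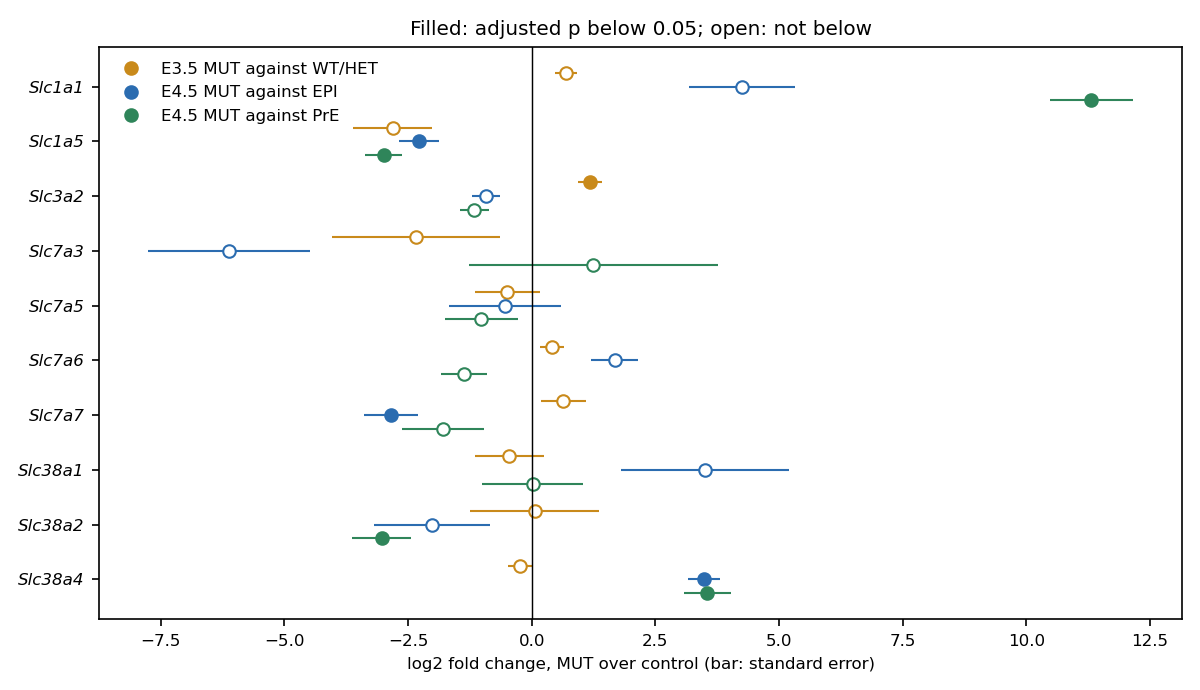
Log2 fold change of MUT over control for the 10 transporters at E3.5 and, at E4.5, against EPI and against PrE, with bars for the standard error and filled points for adjusted p below 0.05. Slc38a4 was filled on the right against both E4.5 lineages and Slc1a5 on the left, and Slc3a2 was the 1 filled point at E3.5.

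Since TE markers were high in E4.5 MUT, the cells were compared with the TE marker sums of single E4.5 control cells, which reached 1801 CPM (single E3.5 control cells reached 4681 CPM). Of 19 MUT cells, 7 lay within the E4.5 limit, at 256 to 1487 CPM, and 12 above it, at 1838 to 14180 CPM. The limit was set by 1 PrE cell. The next highest E4.5 control cell was at 927 CPM, and EPI cells reached 282 CPM. The split therefore does not match MUT to control cells in TE markers. Slc38a4 was detected in each of the 19, with a median of 481 CPM in the 7 cells and 581 CPM in the 12. Slc1a1 had medians of 352 and 434 CPM. With the 12 cells left out, a setting chosen after the values were seen that keeps 4 cells of embryo 3 and 3 of embryo 8, Slc38a4 remained higher than EPI by 2.85 ± 0.35 (adjusted p = 0.00220) and than PrE by 2.88 (adjusted p = 0.0103), and Slc1a1 higher than PrE by 11.02 (adjusted p = 0.000590). Slc1a5 was then at −3.36 against EPI (adjusted p = 0.00488) and −4.09 against PrE (adjusted p = 0.00113), and Slc7a7 at −3.31 against EPI (adjusted p = 0.0114). Slc3a2 (−1.10 against PrE, adjusted p = 0.0448) and Slc7a6 (−1.97 against PrE, adjusted p = 0.0151) passed the threshold in that setting. Slc7a3, too, was called lower than EPI there, but it had reads in 1 of the 7 cells, at 0.642 CPM, so no fold is given.

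**Figure D3:**
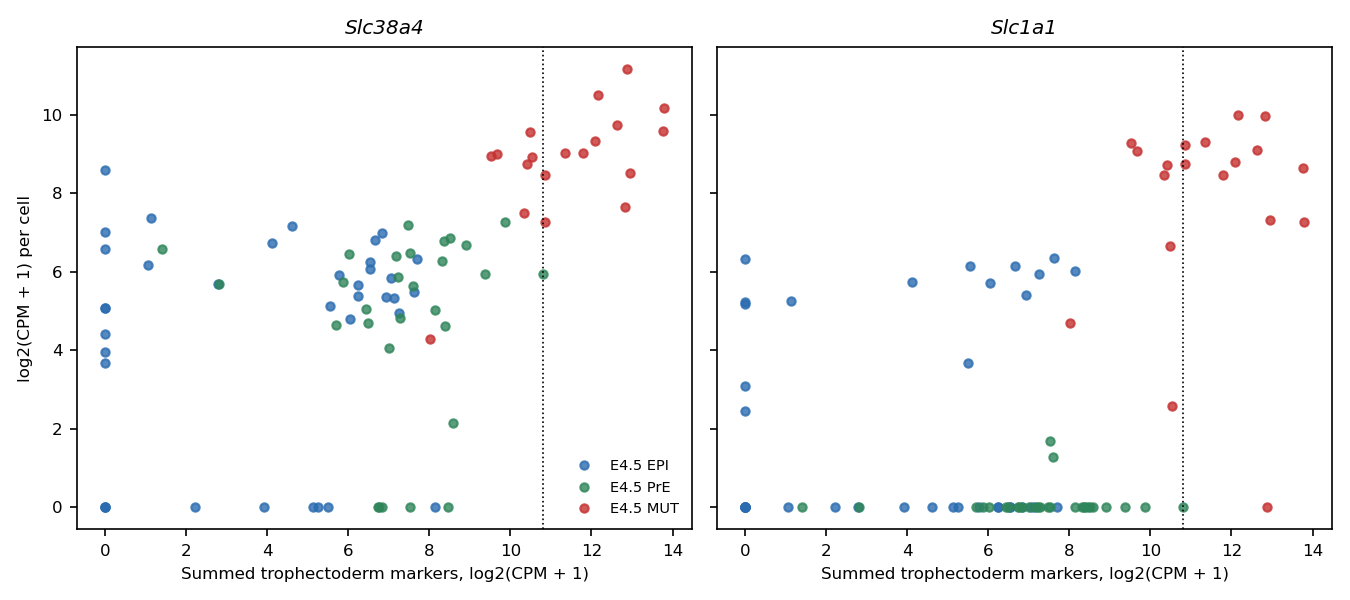
Level in each E4.5 cell, log2(CPM + 1), against the summed CPM of 10 TE markers on the same scale, colored by class, with a dotted line at the highest E4.5 control cell. Median Slc38a4 was 481 CPM in the 7 MUT cells left of the line and 581 CPM in the 12 to its right, and median Slc1a1 352 and 434 CPM.

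The effect of the mutation was then compared between the stages, with the EPI and PrE cells of each E4.5 control embryo summed to a whole ICM. The MUT effect at E4.5 was larger than at E3.5 by 3.72 ± 0.47 on the log2 scale for Slc38a4 (adjusted p = 0.000105) and by 4.30 ± 1.08 for Slc1a1 (adjusted p = 0.0242, but 0.0511 and 0.0623 without MUT embryo 3 or 8). On library-size CPM, Slc38a4 averaged 83.1 in MUT against 111 in control embryos at E3.5, and 643 against 58.6 at E4.5. The heavy chain changed sign, as Slc3a2 averaged 264 in MUT against 131 at E3.5 but 292 against 616 at E4.5, a difference in effect of −2.23 ± 0.39 (adjusted p = 0.00235). Slc7a7 had 26.8 against 19.4 at E3.5 and 45.6 against 264 at E4.5, a difference in effect of −3.15 ± 0.78 (adjusted p = 0.0227, but 0.140 without MUT embryo 8). Without MUT embryo 8, which leaves 1 MUT embryo at E4.5, the difference in effect for Slc7a6 was −2.32. For Slc1a5, low in MUT at both stages, the effect differed by 0.07 ± 0.80 (adjusted p = 1.000). These 4 calls among 10, 2 in each direction, stand beside 5.46% of all genes (2.71% higher and 2.75% lower), and the stages were on different plates for controls and MUT alike.

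Summed counts do not separate fewer expressing cells from less RNA per cell. The share of cells with at least 1 count was read as well, but it does not fully separate them either. For a gene with few reads per cell, less RNA per cell alone can lower that share. Slc1a1 was detected in all 58 control and all 29 MUT cells at E3.5 and in 18 of 19 E4.5 MUT cells, but in 15 of 37 EPI (40.5%) and 2 of 29 PrE cells (6.90%). Slc1a5 was detected in 79.3% of E3.5 control cells against 34.5% of E3.5 MUT cells, and in 86.5% of EPI and 93.1% of PrE cells against 42.1% of E4.5 MUT cells. Pooled over embryos, a smaller share of MUT cells therefore had a Slc1a5 read at both stages. By embryo the E3.5 shares overlapped, at 33.3 to 100% in controls and 0 to 75% in MUT. The 2 E4.5 MUT embryos were at 27.3% and 62.5%, below the lowest EPI (75%) and PrE (80%) shares. Slc7a7 was found in all 37 EPI cells and in 11 of 19 MUT cells (57.9%), and Slc38a2 in 28 of 29 PrE cells and 7 of 19 MUT cells (36.8%). Slc7a3 was seen in 97.3% of EPI, 20.7% of PrE and 21.1% of E4.5 MUT cells, and in 19% of control and 3.45% of MUT cells at E3.5.

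Slc3a2, Slc7a6 and Slc38a4 were each detected in all 58 E3.5 control cells, and Slc38a4 in 28 of 37 EPI and 24 of 29 PrE cells but all 19 E4.5 MUT cells. The median cell had reads of 7 of the 10 genes at E3.5 in both genotypes, 8 in EPI, 7 in PrE and 6 in E4.5 MUT. Median depth per cell was 1318327 counts in E3.5 MUT, 1335828 in E3.5 controls, 1609943 in E4.5 MUT, 1681933 in EPI and 1772045 in PrE. A share depends on the limit chosen where a gene is low, as for Slc7a5, which had a count in 84.5% of E3.5 control cells but reached 10 CPM in 31%.

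**Figure D4:**
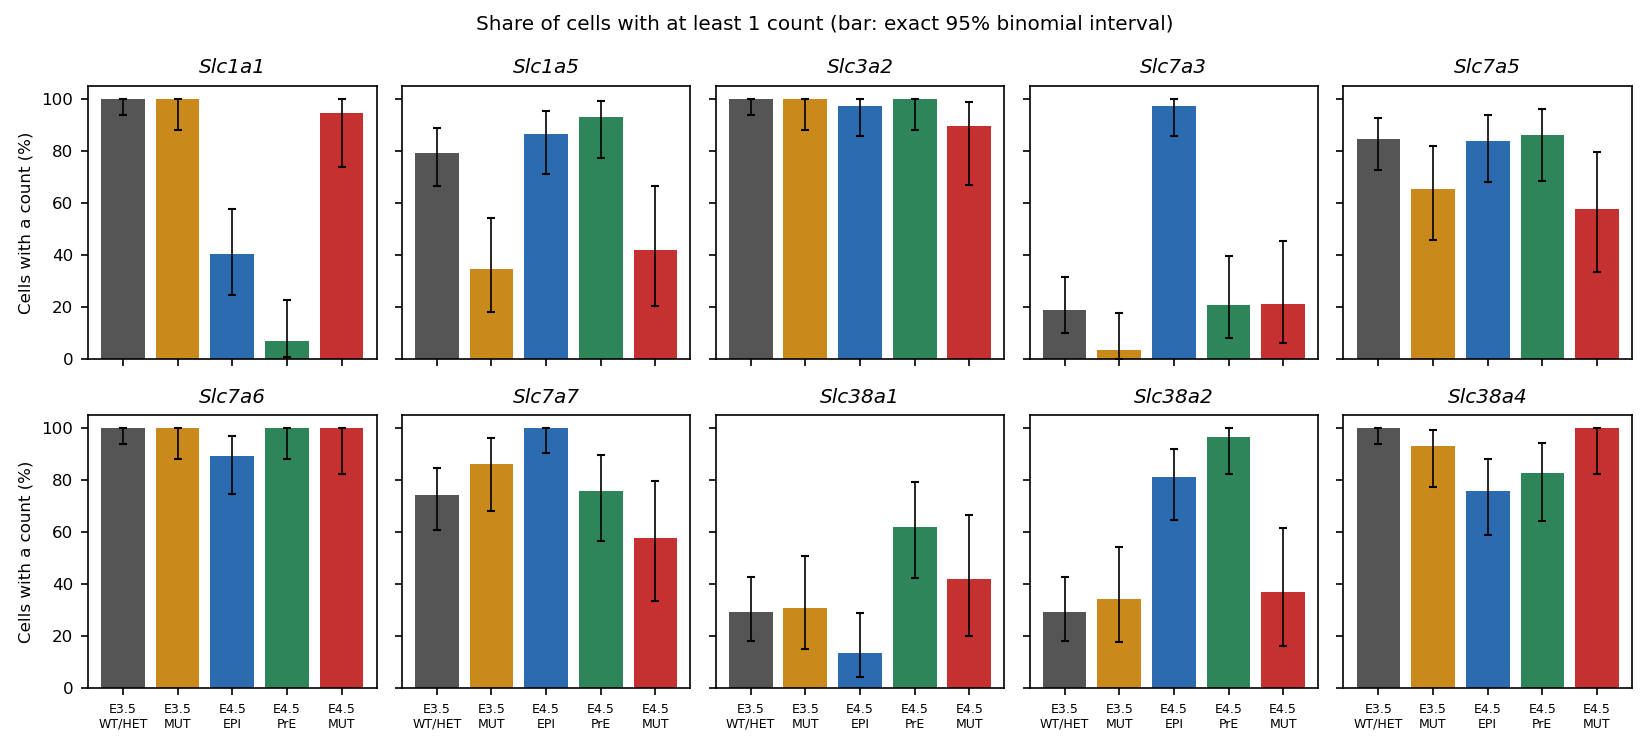
Share (%) of cells with at least 1 count of each transporter in the 5 classes, with exact 95% binomial intervals, which cover counting error only and treat cells of an embryo as separate. Slc7a3 was seen in nearly all EPI cells, Slc1a1 in few PrE cells, and Slc1a5, pooled over embryos, in a smaller share of MUT than control cells at both stages.

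A list of 40 other amino acid transporters was read from the same fits. At E3.5, 2 of 17 tested were lower in MUT and none higher (11.8%, against 6.18% of all genes). These were Slc6a15, a carrier of branched-chain amino acids and proline (3.47 against 45.4 CPM, adjusted p = 0.0330), and Slc16a10, which carries aromatic amino acids (10.5 against 61.8 CPM, adjusted p = 0.0384). Neither had overlapping groups, but they were called in 5 and 2 of the 11 fits that left out 1 embryo, with adjusted p up to 0.0791 (without MUT embryo 10) and 0.0974 (without MUT embryo 10). Between EPI and PrE, 3 of 12 were lower in EPI and none higher (25%, against 9.81% of all genes). They were the glutamate carrier Slc1a3 (19.8 against 133 CPM, adjusted p = 4.89e-05), the cationic carrier Slc7a1 (50.4 against 139 CPM, adjusted p = 0.00122) and Slc38a6 (0.113 against 10.4 CPM, adjusted p = 0.00735). These 3 calls held in each of the 6 fits that left out 1 embryo. Of the cationic carriers, then, Slc7a1 was higher in PrE and Slc7a3 in EPI. The median log2 fold change of the list was −1.29, against 0.03 for all genes.

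In E4.5 MUT, none of 16 of these other transporters was called against EPI, and against PrE 1 of 19 was higher and 2 lower (15.8%, against 3.81% of all genes). Slc6a14, a broad-range carrier, averaged 41 CPM in MUT and was at 0 in every PrE sum (adjusted p = 0.0414, but called in 1 of 8 fits that left out 1 embryo, and 0.126 without MUT embryo 3 and 0.243 without MUT embryo 8). Slc7a1 was at 13.4 against 139 CPM (adjusted p = 0.000912) and Slc1a3 at 2.61 against 133 CPM (adjusted p = 0.00413), both in each of the 8 fits. None of 24 was called for a difference in the MUT effect between the stages. For the stage contrasts in controls, 2 rose and 4 fell of 14 in EPI, and 4 rose and 3 fell of 15 in PrE (42.9% and 46.7%, against 31.9% and 31.7% of all genes), with Slc7a1 higher and Slc16a10 lower in both.

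Genes of the amino acid response, the program that ATF4 turns on when amino acids are short, were read from a list of 20. At E3.5, 1 of 18 was called (5.56%, near the 6.18% of all genes), Phgdh, the first enzyme of serine synthesis, higher in MUT (412 against 166 CPM, adjusted p = 0.0390). Its groups overlapped, and it was called in 3 of 11 fits that left out 1 embryo, with an adjusted p of 0.143 without MUT embryo 10. Between EPI and PrE, 2 were higher in EPI and 5 lower of 20 (35%, against 9.81% of all genes), the lower ones led by Phgdh (86.3 against 370 CPM), Psat1, the next enzyme of that pathway (196 against 397 CPM), and Aldh18a1, which starts proline synthesis (9.52 against 189 CPM). In E4.5 MUT, 2 of 20 were lower than EPI and 5 lower than PrE (10% and 25%, against 4.92% and 3.81% of all genes), and none was higher. Asns, asparagine synthetase, was at 46.9 CPM in MUT against 322 in EPI (adjusted p = 0.0259, but 0.199 without MUT embryo 3 and 0.0701 without MUT embryo 8) and 486 in PrE (adjusted p = 0.00461, in each of the 8 fits that left out 1 embryo). Shmt2, of mitochondrial serine use, was at 68.4 against 266 CPM in EPI (adjusted p = 0.0456, called in 2 of 8 such fits and 0.250 without MUT embryo 3). Psat1 was at 103 against 397 CPM in PrE (adjusted p = 0.00739, but 0.0871 without MUT embryo 3 and 0.0681 without MUT embryo 8). The MUT effect was lower at E4.5 than at E3.5 for 4 of 20 (20%, against 5.46% of all genes), among them Psat1 (−2.21), Asns (−2.90, adjusted p = 0.0150, but 0.124 without MUT embryo 3) and Phgdh (−2.34, adjusted p = 0.0190, but 0.0936 without MUT embryo 3 and 0.0861 without MUT embryo 8). The median log2 fold change of the list was −0.19 against EPI and −0.85 against PrE, where that of all genes was −0.03 and 0.05.

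Of 25 enzymes that use amino acids, 2 were higher and 3 lower of 23 in E3.5 MUT (21.7%, against 6.18% of all genes). Glud1, glutamate dehydrogenase, was at 69.2 against 202 CPM (adjusted p = 0.0174, but 0.0614 without MUT embryo 10 and 0.0571 without MUT embryo 17). Gcat, which completes threonine breakdown, was lower too (5.40 against 38.6 CPM, adjusted p = 0.00329, in each of the 11 fits that left out 1 embryo). Between EPI and PrE, 3 were higher and 3 lower of 20 (30%, against 9.81% of all genes), with the branched-chain aminotransferase Bcat1 at 369 in EPI against 37.0 CPM in PrE (adjusted p = 1.50e-06) and Glul, glutamine synthetase, at 158 against 595 CPM (adjusted p = 0.000442). In E4.5 MUT against EPI, 1 was higher and 2 lower of 22 (13.6%, against 4.92% of all genes). Glul was higher at 545 against 158 CPM (adjusted p = 0.0153, but 0.163 without MUT embryo 3), Bcat1 lower at 28.9 against 369 CPM (adjusted p = 0.000203), and Tdh, the threonine dehydrogenase that mouse pluripotent cells rely on, lower at 9.34 against 394 CPM (adjusted p = 0.000925). Against PrE, Glud1 (88.2 against 385 CPM, adjusted p = 0.0155, but 0.0752 without MUT embryo 3) and Odc1, which starts polyamine synthesis (267 against 721 CPM, adjusted p = 0.0439, but 0.265 without MUT embryo 3), were lower, and none was higher (9.09% of 22, against 3.81% of all genes). The medians of this list were −0.25 against EPI and 0.75 against PrE.

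The genes whose log2 CPM followed each transporter most closely over the 25 sums were sought among 6002 genes with a mean of at least 20 CPM. For Slc1a1 they were Gm12617 (r = 0.951) and Actn2 (r = 0.944), for Slc1a5 Qdpr (r = 0.95) and Gapdh (r = 0.939), and for Slc7a6 Lrpap1 (r = 0.928) and P4ha1 (r = 0.927). Slc7a3 was most like Dpy30 (r = 0.904) and Slc7a7 most like Sumo3 (r = 0.894), while Slc38a4 had Ndfip1 (r = 0.872) and Fabp5 (r = 0.827). Slc38a1 was most like Dab2 (r = 0.800), which is itself in the PrE marker list. The lowest best match was that of Slc7a5, with Ddost (r = 0.792). The 25 sums share plate, stage and, for EPI and PrE, the embryo, so these values describe shared patterns across classes and nothing more.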

How the data were processed

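Single ICM cells were sequenced with Smart-seq2 as 125-bp paired ends. The authors aligned the reads with STAR to mm10 and counted reads per gene with HTSeq, and the deposited values are raw counts per gene for each cell. Across all cells 32.3% of the reads listed were multi-mapped, 8.65% ambiguous and 4.72% in no feature, and these rows were left out. The median multi-mapped share was 38.8% in E3.5 controls, 41.1% in E3.5 MUT, 24.9% in EPI, 19.7% in PrE and 22.0% in E4.5 MUT. Median mitochondrial shares of the counts were 9.45%, 7.66%, 3.83%, 3.22% and 4.65% in the same order. The part of these stage differences in the fold changes was not tested. Gene symbols and lengths came from GENCODE M21, which held 49326 of the 49671 genes. The lists and the 10 transporters were chosen with earlier results of these data known.

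Counts were summed per embryo (and lineage at E4.5) and tested with edgeR 4.0.16 (R 4.3.3): filterByExpr, TMM, quasi-likelihood fits of the groups compared, and Benjamini-Hochberg adjustment over all genes tested, with a threshold of 0.05. The code was tested on simulated counts. Levels are CPM on TMM library sizes, or FPKM where genes are compared. Fold changes are log2 with SE, and SD is over embryos. EPI and PrE sums of the same number came from the same embryo, so embryo was a block in an alternative fit. Correlations of same-embryo deviations were 0.00886 to 0.0458. Embryos are separate animals. No test was run on cells. Binomial intervals (95%, exact) and the limit that a count of 0 allows (3 counts) cover counting error only. All 10 transporters are named, and of the other lists up to 3 called genes per direction with the smallest adjusted p. One gene that this rule names is not reported here.

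Alternatives were DESeq2 1.42.0, its size factors, no filter, a mean of at least 10 CPM, cells weighted equally with limma 3.58.1, 9 shallow cells left out, all sums in one fit, WT controls alone, each embryo left out and, chosen after the data were seen, 12 MUT cells left out. Where leaving out a MUT embryo left 1 at E4.5, that embryo was assumed to vary like the other groups.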

Additional observations from a re-analysis of the deposited data

Results flagged for a closer look

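Of 40 sets of 4 to 7 embryos, 1 for each transporter in each class but E4.5 MUT, 6 held 1 embryo whose gap to the nearest other was large for the range of its group by Dixon's test at the 95% level, which chance gives in about 1 of 20 groups. Slc38a1 was at 161 CPM in PrE of embryo 5 and at 16.8 CPM in EPI of embryo 2. Slc7a3 was at 19.1 CPM in PrE of embryo 7, and at 5.79 CPM in E3.5 MUT embryo 12 where the other 3 were at 0. Slc7a5 was at 20.5 CPM in E3.5 WT embryo 13, and Slc38a2 at 24.2 CPM in E3.5 WT embryo 18.

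The MUT effect differed between E4.5 and E3.5 by the interaction term of the edgeR fit for 4 transporters, on the log2 scale by 4.30 for Slc1a1, −2.23 for Slc3a2, −3.15 for Slc7a7 and 3.72 for Slc38a4. Those of Slc3a2 and Slc38a4 were called in every fit that left out 1 embryo. Stage and plate cannot be told apart in them.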

How the results depend on the processing

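Alternatives are given for the number of the 10 transporters called and, after it, of all genes called. For E3.5 MUT against WT/HET (1 and 746), DESeq2 gave 3 and 1607, cells weighted equally 3 and 1353, one fit of all sums 2 and 193, a mean of at least 10 CPM 2, and WT controls alone 0 and 435. For EPI against PrE (3 and 958) DESeq2 gave 1447 genes, equal weights 5 and 1824, one fit 2467 genes, and WT embryos alone 0 and 3. For E4.5 MUT against EPI (3 and 637) DESeq2 gave 7 and 1691, no filter 5, at least 10 CPM 6, equal weights 5 and 1479, one fit 5 and 1631, and WT controls alone 0 and 48. Against PrE (4 and 466) DESeq2 gave 1219 genes, equal weights 1097, one fit 1366, and WT controls alone 1 and 27. Equal weights gave 5793 genes for EPI against E3.5 (8 and 3557), where WT embryos alone gave 5 transporters, and 5191 for PrE against E3.5 (9 and 3420). For the difference in MUT effect (4 and 896), DESeq2 gave 1850 genes, equal weights 1445, the 12 MUT cells left out 1392, and WT controls alone 2 and 470. At E4.5, WT alone leaves 2 control embryos. Leaving out 1 embryo gave, in the same order, 1 to 2, 2 to 3, 2 to 4, 3 to 5, 7 to 8, 9 and 3 to 4 transporters and 482 to 882, 649 to 916, 226 to 774, 169 to 534, 3026 to 3972, 2894 to 3905 and 562 to 1015 genes. The fit with the embryo as replicate block gave 2 transporters and 840 genes for EPI against PrE, and among the transporters it changed the call of Slc1a5 alone (−0.75, adjusted p = 0.0609).

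The sign turned only for fold changes that were not called in the setting that turned them, and of these only that of Slc38a10 was called with the settings of the report. With WT controls alone it turned for Slc38a2 at E3.5 (−0.42), Slc7a5 against EPI (0.88), between EPI and E3.5 (−0.18) and in the difference of effects (0.90), and Slc38a1 against PrE (−0.93). With equal weights it turned for Slc38a4 in EPI against PrE (−0.21, and −0.0025 with no filter), Slc38a1 against PrE (−0.80), Slc1a5 in the difference of effects (−1.68) and, of the other transporters, Slc38a10 in EPI against E3.5 (−0.32). With the 12 MUT cells left out it turned for Slc7a3 (−4.99) and Slc38a1 (−1.67) against PrE and for Slc1a5 (−1.03) and Slc38a1 (−0.14) in the difference of effects. Leaving out 1 embryo turned it for Slc38a2 at E3.5 (−0.90 to 1.05), Slc38a4 in EPI against PrE (−0.12 to 0.16), Slc7a3 (−5.63 to 4.31) and Slc38a1 (−2.36 to 0.95) against PrE and, in the difference of effects, Slc1a5 (−0.32 to 0.37), Slc7a3 (−10.14 to 4.31), Slc7a5 (−1.13 to 0.24) and Slc38a1 (−0.82 to 2.41). With equal weights the median log2 fold change of all genes was −0.63 in EPI and −0.62 in PrE against E3.5, and the causes of these changes were not tested. Of 1343 other fits of a transporter's fold change, 1217 kept its direction and side of the threshold, as did 1252 of 1461 for genes named from the other lists. Shares of cells moved by more than 1 SD in 17 of 150 alternatives. Results for E4.5 MUT rest on 2 embryos, whatever the counts per cell.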
